A study of Drosophila melanogaster with 3 samples.

Results

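The genes described are the proteasome subunit genes of Drosophila melanogaster, taken as every protein-coding gene of the Ensembl BDGP6 annotation whose symbol begins with Prosalpha, Prosbeta, Rpn or Rpt followed by a number. This rule gave 48 of 13968 protein-coding genes. Of these, 32 are standard subunits, whose symbol ends with the number, and 16 are paralogues whose symbol carries a T or R after it, such as Prosalpha4T1 and Rpn12R. The T or R paralogues are called testis-type here, after the symbol alone, since expression was not measured.

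The proteasome degrades proteins that carry chains of ubiquitin. Its core is a barrel of outer rings of alpha subunits, encoded by the Prosalpha genes, and inner rings of beta subunits, encoded by the Prosbeta genes, some of which hold the protease sites. A regulatory particle caps the barrel. Its base holds the Rpt ATPases, which unfold the substrate, and Rpn subunits that act as scaffold and ubiquitin receptors, and its lid holds the remaining Rpn subunits, among them the deubiquitinase Rpn11. Nearly all cells use the standard subunits, and several paralogues are known from the male germline of the fly.

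Binding was measured by chromatin immunoprecipitation and sequencing (ChIP-seq) with an antibody against GFP, and the data are the authors' peak lists. The chromatin came from whole embryos of both sexes, aged 0 to 16 hours, of 1 transgenic strain, labelled ind-GFP, that makes the homeodomain protein ind fused at its C-terminus to eGFP. There were 3 biological replicates, all of this 1 group, with no comparison group, and the cells in which the fusion protein is made are not given in the labels. The authors' optimal list, made from all replicates, held 5809 peaks, and the relaxed lists held 30000, 27570 and 25725 peaks for replicates 1, 2 and 3 and 24244 for the pooled reads. Read depth is unknown. The strength of a peak is given as its relative signal, the authors' signal value divided by the median of the optimal list, or, in a replicate, by the median of the replicate's peaks that match optimal ones. In whole embryos, binding in few cells and weak binding in many cannot be told apart.

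Peaks were found at standard subunit genes and at 0 of the testis-type genes. Peaks were assigned to every gene that held the summit between 2000 bp upstream of its start and its end. By this measure 17 of 32 standard genes (53.1%) had an optimal peak, against 34.2% of all protein-coding genes. The count for testis-type genes was 0 of 16. Over all 48 genes together the share was 35.4%, close to that of all genes. Gene length was alike, with a median of 1390 bp for standard and 1282 bp for testis-type genes, and 30.1% of the 7997 protein-coding genes of the same length range (881 to 4500 bp) had an optimal peak.

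Each replicate gave the same split, though the optimal list was made from these same replicates. Among the 5809 strongest peaks of each replicate, standard genes with a peak were 15, 15 and 16 in replicates 1, 2 and 3, which is 46.9%, 46.9% and 50%. Testis-type genes with such a peak numbered 0 in each. All protein-coding genes stood at 34.9%, 33.0% and 34.6%. The difference between standard and testis-type genes was 47.9 percentage points ± 1.80 (SD, n = 3), with the same sign in 3 of 3 replicates. An exact two-sided permutation of its sign over replicates gave p = 0.25, the smallest value that 3 replicates allow, so the design cannot reach 0.05. In all 3 replicates 11 standard genes had such a peak, 5 had it in 2 replicates, 3 in 1 and 13 in 0. The share of all genes by number of replicates is not given.

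Below the authors' threshold the difference was less even between replicates. In the pooled relaxed list 23 of 32 standard genes and 1 of 16 testis-type genes had a peak, against 61.0% of all protein-coding genes. In the relaxed list of replicate 1, 29 standard and 3 testis-type genes had a peak, against 69.0% of all genes. Replicate 2 had 18 standard and 8 testis-type genes, against 63.9%. Replicate 3 had 24 standard and 2 testis-type genes, against 64.9%. Replicate 2 had the fewest standard and the most testis-type genes with a relaxed peak, and both its shares lay below that of all genes. The difference in share was thus 6.25 percentage points in replicate 2, against 71.9 and 62.5 points in the other two. The relaxed lists hold background too, per their deposited names. A relaxed peak in all 3 replicates was found at 18 standard and 0 testis-type genes. The matching share of all genes is not given, so these counts have no background beside them.

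**Figure D1:**
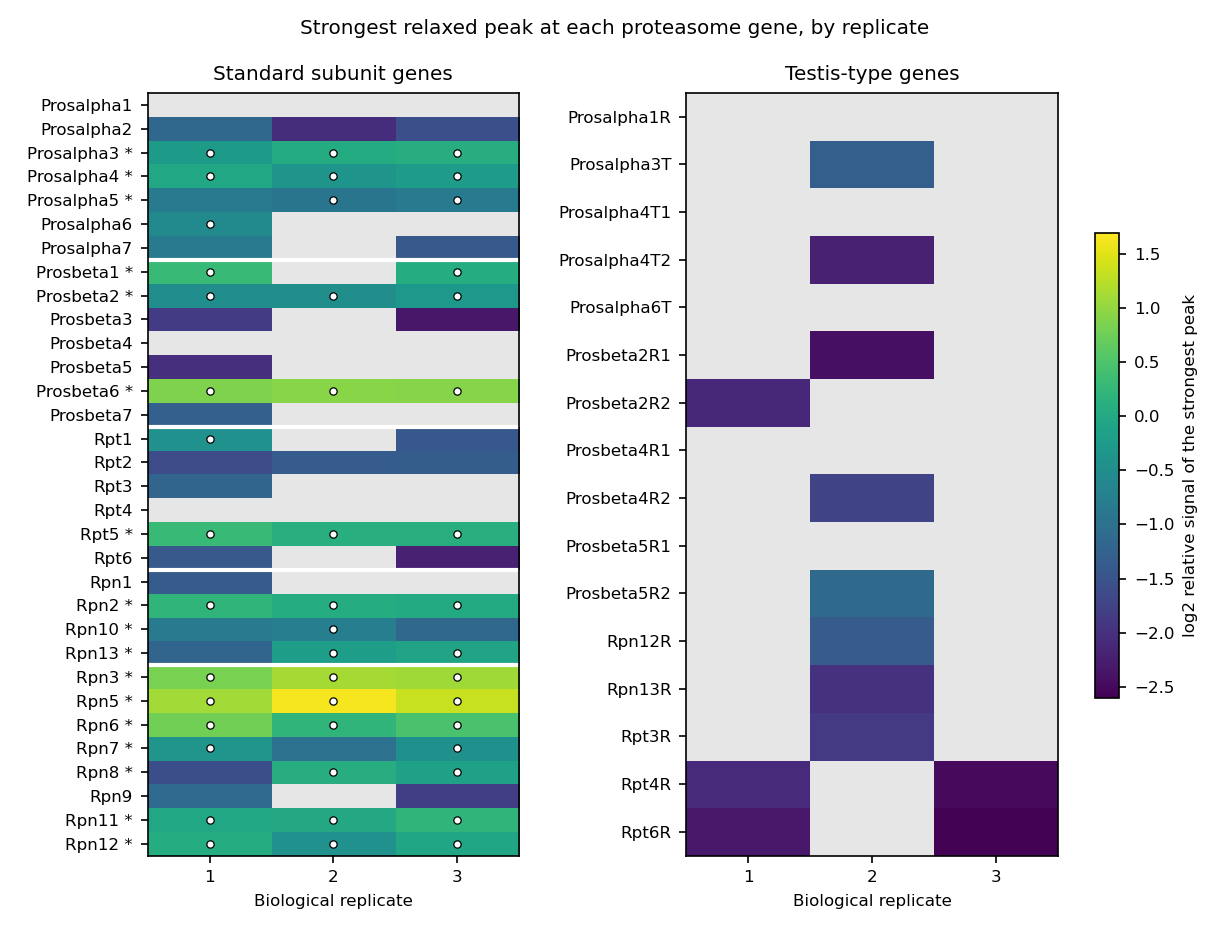
Each cell shows the strongest relaxed peak in the body or 2000 bp upstream of a proteasome gene in 1 of 3 biological replicates, as log2 of its signal divided by the median signal of the peaks matched to the optimal list in that replicate; grey marks no relaxed peak, a white dot a peak among the replicate's 5809 strongest, and an asterisk a gene with an optimal peak. White lines separate, from the top, the alpha ring, the beta ring, the Rpt ATPases, the other base subunits and the lid. Dots fall on standard genes and on 0 of the 16 testis-type genes.

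In the optimal list the lid had peaks at most of its genes and the ring of ATPases at few. The share of all protein-coding genes was 34.2%. An optimal peak was found at 7 of the 8 lid genes named Rpn, and in the replicates 6, 6 and 7 had a peak among the strongest (79.2% ± 7.22, SD, n = 3). The small lid subunit Sem1, whose symbol falls outside the rule, had no optimal peak, so that with it the lid had 7 of 9. Of the 6 Rpt genes 1 had an optimal peak, and 2, 1 and 1 had a peak in the replicates (22.2% ± 9.62, SD, n = 3). The other base genes had 3 of 4, with 1, 3 and 2 in the replicates. The alpha ring had 3 of 7, with 3 in each replicate, and the beta ring 3 of 7, with 3, 2 and 3. The lid lay above the Rpt genes in each of the 3 replicates. In the pooled relaxed list 8 of 8 lid and 4 of 6 Rpt genes had a peak, against 61.0% of all protein-coding genes. With the nearest coding start alone 5 of 8 and 1 of 6 had an optimal peak, against 27.3%. These groups hold few genes and were written after peak values were seen, and no test was run between them.

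**Figure D2:**
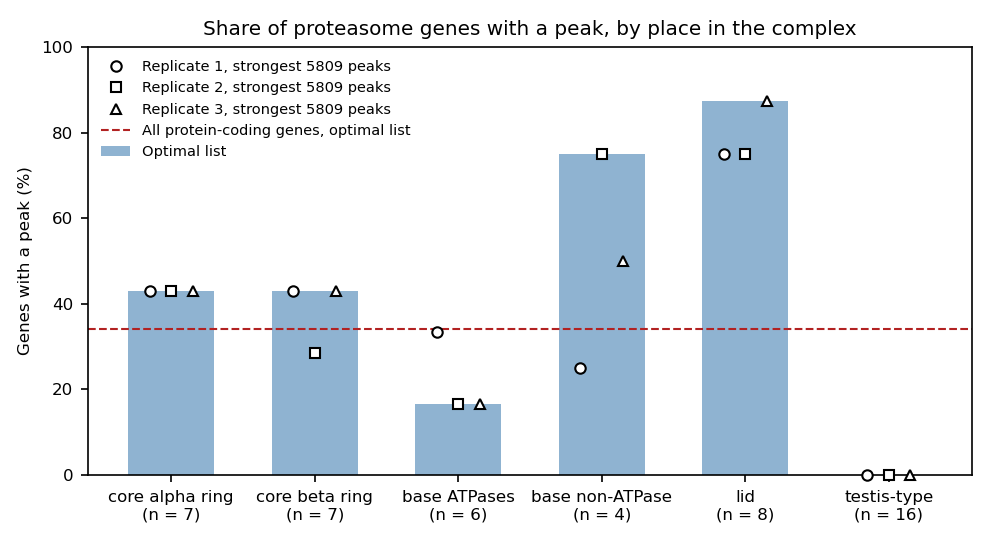
Bars give the percentage of genes with an optimal peak for each place in the proteasome and for the testis-type genes, with the number of genes under each bar, and markers give the same share in each replicate's 5809 strongest peaks. The dashed line is the 34.2% of all protein-coding genes, and the 8 lid genes named Rpn stand at 87.5%, the ATPases at 16.7% and the testis-type genes at 0%.

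Sequences are shown for an element found in promoters or near summits of these genes. The DNA replication-related element (DRE), TATCGATA, is a sequence bound by the factor DREF and known from promoters of growth and cell cycle genes in the fly. The stretches below are from dm6 (RefSeq's copy of the assembly), 5′ to 3′ on the strand of the proteasome gene, with the DRE in capitals. Each of the first 7 belongs to a gene with an optimal peak, and in all but Rpn7 the DRE lay within 100 bp of an optimal summit. In Rpn7 it lay 122 bp from the summit, just after the start of the gene. The Prosbeta6 stretch is near the start of its neighbour CG4101, and the summit near the printed Prosbeta2 DRE lay nearest to the start of the neighbour mRpL39. The DREs printed for Prosbeta2, Rpn11, Rpn3 and Prosbeta6 lay outside the promoter as defined below. Prosbeta2, Rpn3 and Prosbeta6 held a further DRE in the promoter that is not printed, and Rpn11 held none there.
Prosbeta2, chr3L:14999655-14999734, plus strand: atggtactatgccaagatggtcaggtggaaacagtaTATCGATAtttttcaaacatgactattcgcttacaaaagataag
Rpn12, chr3L:16582776-16582855, plus strand: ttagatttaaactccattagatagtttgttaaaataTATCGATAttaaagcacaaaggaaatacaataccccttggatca
Rpt5, chr3R:23752805-23752873, plus strand: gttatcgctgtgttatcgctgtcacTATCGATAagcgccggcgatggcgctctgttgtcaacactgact
Rpn11, chr2L:5060144-5060239, minus strand: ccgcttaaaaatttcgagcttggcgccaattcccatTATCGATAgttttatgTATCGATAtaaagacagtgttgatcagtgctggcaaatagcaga
Rpn3, chr2L:19051855-19051884, plus strand: accgtaaaacgTATCGATAaattgaaacgt
Prosbeta6, chr3L:16612406-16612485, minus strand: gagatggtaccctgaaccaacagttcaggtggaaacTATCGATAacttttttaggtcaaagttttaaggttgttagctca
Rpn7, chr3R:22462025-22462087, minus strand: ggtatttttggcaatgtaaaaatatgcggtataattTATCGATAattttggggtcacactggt
A DRE was in the promoters of the standard genes Prosalpha6 and Rpn9, which had no optimal peak.
Prosalpha6, chr2L:10221299-10221378, plus strand: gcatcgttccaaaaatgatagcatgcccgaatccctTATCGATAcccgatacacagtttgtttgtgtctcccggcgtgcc
Rpn9, chr3R:23733418-23733447, minus strand: gcccggttaaaTATCGATAttctcgcggat

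The strongest peak at a proteasome gene, at Rpn5, and a second peak beside it had no DRE within 100 bp of the summit. These stretches are centred on the summits, with the summit base in capitals, and the first is the stronger. Within 100 bp of its summit the first held 1 TAATTA, a core bound by many homeodomains, and the second held 0.
Rpn5, chr3R:5789161-5789261, plus strand: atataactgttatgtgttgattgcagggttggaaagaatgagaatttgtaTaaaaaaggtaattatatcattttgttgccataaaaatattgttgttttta
Rpn5, chr3R:5789360-5789460, plus strand: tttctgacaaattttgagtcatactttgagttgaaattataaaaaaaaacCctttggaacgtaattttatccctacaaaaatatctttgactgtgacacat
For contrast, the testis-type gene Rpn12R, whose start lies beside the 3′ end of ind, had no DRE in its promoter. The 150 bases before its start are given.
Rpn12R, chr3L:15042571-15042720, minus strand: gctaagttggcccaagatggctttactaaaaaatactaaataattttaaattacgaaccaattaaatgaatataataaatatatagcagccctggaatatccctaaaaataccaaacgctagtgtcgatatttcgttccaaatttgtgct

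In total 12 of 32 standard promoters held a DRE (37.5%), against 9.36% of all 13968 protein-coding promoters, where a promoter ran from 250 bp before to 50 bp after the start and both strands were searched. Of the 17 standard genes with a peak 10 held it (58.8%), and of the 15 without 2 held it (13.3%). Of the 16 testis-type promoters 0 held it. The DRE in the Prosbeta6 promoter was 1904 bp from the summit counted for that gene. Put the other way, 10 of the 12 standard genes with a DRE had a peak (83.3%) and 7 of the 20 without (35.0%). Over all protein-coding genes these shares were 49.0% of 1307 and 32.7% of 12661, a smaller difference. No test was run, since genes are not replicates.

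The element was also counted around the summits. Within 100 bp of the summit a DRE was found in 10 of the 23 optimal peaks at proteasome genes (43.5%), against 211 of all 2792 optimal peaks at promoters (7.56%). Of these 10 summits, those of Prosbeta1, Prosbeta2, Prosbeta6 and Rpn12 at -1443 bp lay nearest to a neighbour's start. The rest lay nearest to the start of the proteasome gene. The 11 elements in the windows of 100 bp lay 24 to 83 bp from the nearest summit, with a median of 46 bp. The window limits these distances to 100 bp, so they do not show that the element is close to summits. Promoter DREs outside the windows, at Rpn13, Rpn7, Prosbeta2, Rpn3 and Prosbeta6, lay 110, 122, 180, 221 and 1904 bp from the nearest summit. Proteasome gene peaks with a DRE had a median relative signal of 0.920 and those without 0.869, with overlapping ranges of 0.558 to 2.14 and 0.562 to 2.78. Over all promoter peaks the order was the other way, with medians of 0.994 for the 211 with a DRE and 1.15 for the 2581 without.

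Each of the other 6 motifs searched was in a smaller share of these summit windows than of the windows of all promoter peaks. TAATTA, a core bound by many homeodomains, was in 4 of the 23 summit windows (17.4%), against 18.4% of promoter peaks. In promoters it was in 0 of the 17 standard genes with a peak, 3 of the 15 without and 2 of the 16 testis-type genes, against 20.4% of all genes. The antioxidant response element TGACNNNGC, the site of cnc, a regulator of proteasome genes under stress, was in 5 of 32 standard promoters (15.6% against 8.62%). Of these 5, 4 were at genes without a peak, and 0 of the 23 summit windows held it. GGTCACAC, the core of the promoter element known as motif 1, was in 5 of 32 standard and 0 of 16 testis-type promoters (7.69% of all genes). GAGAG, the core bound by GAF, was in 3 of 32 standard and 6 of 16 testis-type promoters (29.7% of all genes). The run AAAAAA was in 18 of 32 and 10 of 16 (50.4% of all genes), and CAGCTG in 1 of 32 and 1 of 16 (17.6%). The bases A and T made up 65.4% of standard and 64.3% of testis-type promoters, against 60.9% of all promoters.

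**Figure D3:**
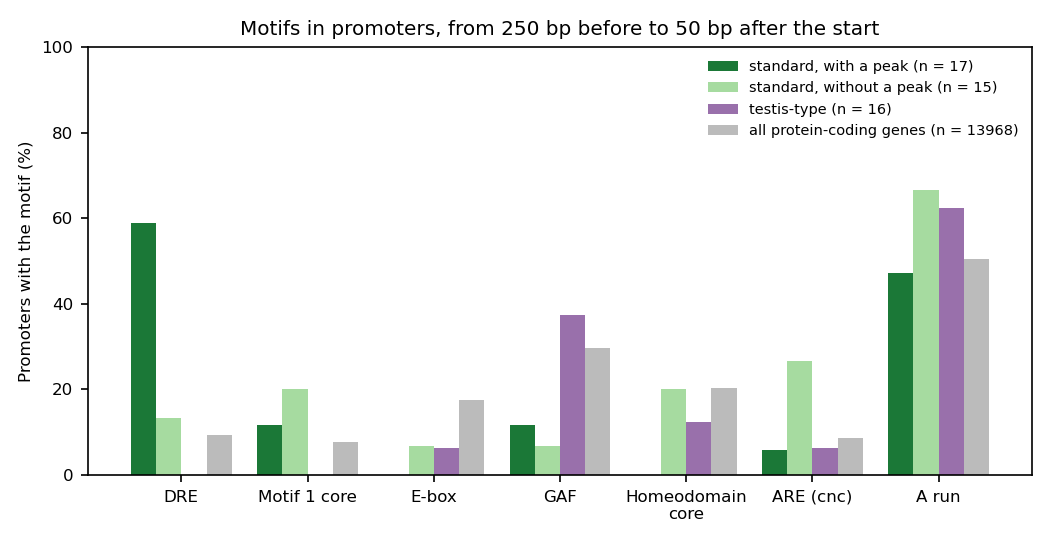
Bars give the percentage of promoters, from 250 bp before to 50 bp after the start, that hold each of 7 motifs on either strand, for standard genes with and without an optimal peak, testis-type genes and all protein-coding genes. The DRE is in 58.8% of standard promoters with a peak, 13.3% of those without, 0% of testis-type promoters and 9.36% of all promoters.

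By their strongest optimal peak, the leading genes were Rpn5 (relative signal 2.78) and Rpn3 (2.14) of the lid, Prosbeta6 (1.99) of the beta ring, whose peak lay at a neighbour's start, and Rpn6 (1.46) of the lid. The lid is the part of the regulatory particle that removes ubiquitin. Rpn5 (FBgn0028690, 3R from 5789493 to 5791569, plus strand), a scaffold subunit of the lid, had 2 overlapping optimal peaks, with summits at -282 and -83 bp from its start. The stronger (3R from 5789012 to 5789310) ranked 571 of 5809. Its relative signal was 2.16, 3.11 and 2.54 in replicates 1, 2 and 3 (2.61 ± 0.481, SD, n = 3), and each replicate was above the median of its list. Both summits lay nearest to starts of Hat1, a histone acetyltransferase gene that runs away from Rpn5 on the other strand. In replicates 1 and 2 the same replicate peak matched both.

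Rpn3 (FBgn0261396, 2L from 19051790 to 19053681), another scaffold subunit of the lid, had its peak at 28 bp after its own start, in the 5′ UTR, between the 2 DREs found there. Its relative signal was 1.79, 2.18 and 2.13 in the replicates, and the optimal rank was 920. Rpn6, also of the lid, had a peak at -119 bp from the nearest of its starts with relative signals of 1.73, 1.16 and 1.38. These lid genes were above the list's median in all 3 replicates.

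The deubiquitinase gene Rpn11 and the other lid genes had weaker peaks. Rpn11 had 3 optimal peaks, at -171, -370 and -1561 bp from its start, with relative signals of 1.06, 0.664 and 0.583 in the optimal list. The peak at -171 bp had 0.989, 0.996 and 1.16 in the replicates. The pair of DREs printed above lay beside the peak at -370 bp, and the third peak lay in the neighbouring gene qtc. The first and second of these peaks matched the same replicate peak in replicates 1 and 2.

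Rpn12, a lid subunit, also had 3 peaks. The peak at -135 bp from its start had relative signals of 1.05, 0.657 and 0.697 in the replicates, and the other two lay at -1443 and -1644 bp, nearest to the start of Smn, the fly gene of the survival motor neuron protein. Those matched the same replicate peak in replicates 2 and 3. Rpn7, a lid scaffold subunit, had relative signals of 0.779, 0.507 and 0.737 at -116 bp. Rpn8, the partner of Rpn11, had 0.305, 1.06 and 0.905, so that replicate 1 stood apart, with the matched peak at rank 13877 there. The Rpn8 summit lay inside the annotated Rpn8 gene but nearest to a start of Slik, a protein kinase gene. Rpn9, like Sem1, was a lid gene without an optimal peak. Rpn9 had a pooled relaxed peak at 0.298 times the optimal median, and 0 relaxed peaks in replicate 2.

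In the base, Rpt5 was the ATPase gene with an optimal peak. Its summit (3R from 23752802 to 23752915) lay at -16 bp from its start, 26 bp from a DRE, and its relative signal was 1.24, 1.07 and 1.07 in the replicates (1.13 ± 0.0952, SD, n = 3). The other ATPase genes were below the threshold. Rpt1, Rpt2 and Rpt6 had pooled relaxed peaks at 0.457, 0.418 and 0.234 times the optimal median, and the weakest optimal peak stood at 0.541. Rpt1 had a peak among the strongest in replicate 1 alone, at rank 4400. Rpt3 had relaxed peaks in replicate 1 alone, and Rpt4 had 0 in each replicate.

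Among the other base genes, Rpn2, the large scaffold subunit, had peaks at -1640 bp, nearest to eIF2D, and at -167 bp, nearest to Slbp, the histone mRNA stem-loop binding protein gene. The peak at -167 bp varied, with relative signals of 1.16, 0.548 and 0.369 in the replicates. The ubiquitin receptor genes differed. Rpn13 had a peak at -104 bp with 0.437, 0.871 and 0.935 in the replicates, and Rpn10 at -16 bp with 0.571, 0.591 and 0.454. Rpn10 had the weakest strongest peak of the 17 genes, at rank 5587 of 5809, and was among the strongest peaks of replicate 2 alone. Rpn1, also a ubiquitin receptor and scaffold, had no optimal or pooled peak and relaxed peaks in replicate 1 alone.

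In the core, the alpha ring genes with a peak were Prosalpha3, Prosalpha4 and Prosalpha5. Prosalpha3 had its summit at -45 bp from its start, 46 bp from a DRE, with relative signals of 0.835, 1.03 and 1.06 in the replicates. Prosalpha4 had 0.969, 0.774 and 0.854, at a summit at -305 bp from its start and nearest to kat80, which encodes a katanin subunit. Prosalpha5 had 0.559, 0.523 and 0.565 at 8 bp after its start. Of the rest, Prosalpha2 had weak relaxed peaks in all 3 replicates (0.444, 0.244 and 0.343). Prosalpha6 had relaxed peaks in replicate 1 alone, the strongest at rank 4916, and Prosalpha7 in replicates 1 and 3. Prosalpha1 had 0 relaxed peaks in each.

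In the beta ring, Prosbeta1 and Prosbeta2 encode catalytic subunits, with caspase-like and trypsin-like activity. Prosbeta2 (3L from 14999951 to 15001319) had its summit at -186 bp, with relative signals of 0.711, 0.716 and 0.808, and nearest to the start of the mitochondrial ribosomal protein gene mRpL39. Prosbeta1 had 1.23 in replicate 1 and 1.04 in replicate 3, and 0 relaxed peaks in replicate 2. Its summit lay nearest to the start of the exosome gene Rrp42. Prosbeta5, the third catalytic subunit gene, with chymotrypsin-like activity, had no optimal peak and 1 relaxed peak, in replicate 1 at rank 17829. Prosbeta6, a non-catalytic subunit, was counted for a peak at -1945 bp that lay at the start of CG4101, with 1.82, 1.91 and 1.88 in the replicates. Prosbeta3 and Prosbeta7 had relaxed peaks without an optimal one, and Prosbeta4 had 0 in each replicate.

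Across the members the peaks were of middling strength. The 23 optimal peaks at proteasome genes had relative signals from 0.558 to 2.78 with a median of 0.869, against 1.13 for all 2792 promoter peaks, and 4 of them were among the strongest 1452 peaks of the list. Of the 23 peaks 22 lay within 500 bp of an annotated start, 15 were found within 200 bp among the strongest peaks of all 3 replicates (65.2%, against 74.1% of promoter peaks), 7 in 2 replicates and 1 in 1. Adjacent peaks at Rpn5, Rpn11 and Rpn12 shared matched replicate peaks, so these are not counts of separate sites.

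About as many of these peaks lay nearest to a neighbour's start as to that of the proteasome gene. Of the 23 peaks 11 were nearest to the start of the proteasome gene and 12 to that of a neighbour. Within 500 bp of a start of the proteasome gene lay 18 summits, 16 of them upstream, with a median position of -118 bp, and 5 lay farther away. A coding gene starting on the other strand within 500 bp upstream was found for 18 of 32 standard genes (56.2%) and 2 of 16 testis-type genes (12.5%), against 26.4% of all protein-coding genes. Among all genes 46.8% of those with such a neighbour had a peak within 500 bp of a start, and 15.8% of those without. Standard genes had one at 9 of 18 with a neighbour and 7 of 14 without. The part of the arrangement in the difference between standard and testis-type genes was not tested.

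With the rule narrowed to 500 bp around a start, 16 of 32 standard genes had a peak, against 23.9% of all protein-coding genes, and Prosbeta6 was the gene that dropped out. When each peak went to the nearest coding start alone, standard genes with a peak were 10, against 27.3% of all genes, and testis-type genes 2. Those were Rpn13R and Prosbeta5R1, where the nearest summit lay 12140 and 11842 bp from the start. Under this assignment the share of standard genes was near that of all genes.

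**Figure D4:**
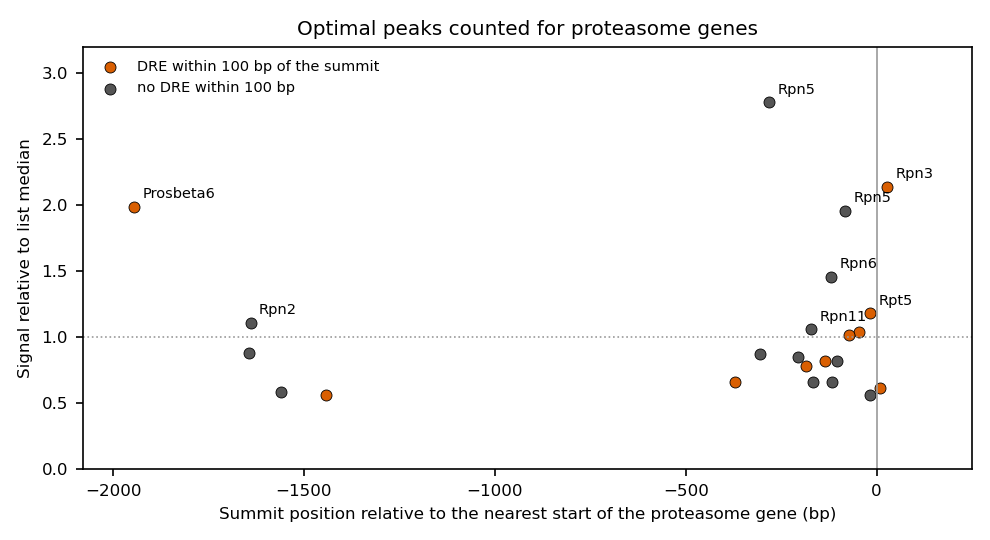
Each point is an optimal peak counted for a proteasome gene, placed by its summit position relative to the nearest start of that gene in bp (negative is upstream) and by its signal relative to the list's median on the vertical axis. Orange points have a DRE within 100 bp of the summit, and 18 of 23 points lie within 500 bp of the start.

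The testis-type genes were compared with the standard genes whose number they carry. The 16 genes correspond to 12 standard genes, of which 5 had an optimal peak, namely Prosalpha3, Prosalpha4, Prosbeta2, Rpn12 and Rpn13. The copies of these 5, 7 in number, had 0. The remaining 9 copies had standard counterparts without an optimal peak, among them Rpt3, Rpt4, Rpt6 and Prosbeta5, so that for them the counterpart did not differ in the optimal list. The testis-type genes lay on 5 chromosome arms, with 4 on 2L, 3 on 2R, 2 on 3L, 5 on 3R and 2 on X.

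Weak relaxed peaks at testis-type genes were mostly found in 1 replicate, and the matching share of all genes is not given. A relaxed peak was found in 1 replicate at 9 of the 16 genes, in 2 replicates at 2 and in 0 at 5. The 2 were Rpt4R and Rpt6R, in replicates 1 and 3, with relative signals from 0.168 to 0.238. The strongest was at Prosbeta5R2 in replicate 2, at 0.463 and rank 6598 of that list, outside its 5809 strongest. Prosalpha3T was the testis-type gene with a pooled relaxed peak, at 0.274 times the optimal median. Rpn12R (3L from 15041631 to 15042570) lies 229 bp from the 3′ end of ind (3L from 15042799 to 15043924), the gene of the tagged protein, on the same strand, so that ind falls within its upstream 2000 bp. In its body or upstream 2000 bp Rpn12R had 1 relaxed peak, in replicate 2, with a relative signal of 0.386 at rank 8071. It had 0 in replicates 1 and 3.

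Genes that work with the proteasome were taken as 6 lists, 52 genes in all, of which 28 had an optimal peak (53.8%, against 34.2% of all protein-coding genes). Of 12 genes of activation, inhibition and assembly 7 had one, led by CG12321 (relative signal 3.12), Pomp, the proteasome maturation factor (2.83), and ntc, an F-box gene (1.7). The CG12321 peak lay nearest to the start of MED17 and the ntc peak to that of CG32264. The Pomp peak had 3.13, 2.42 and 2.73 in the replicates, which was above the stronger peak of Rpn5 in replicates 1 and 3 and below it in replicate 2. Sem1, the small lid subunit, Usp14, a proteasome-bound deubiquitinase, Txl, CG11885 and CG13319 had none. Uch-L5, another deubiquitinase bound to the proteasome, had a peak at 1.25.

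Of 8 genes around cnc, which encodes the Nrf-type activator of proteasome genes, 5 had a peak. They were led by Hrd3 (6.84), Keap1, the inhibitor of cnc (3.02), and cnc itself (1.88), with the Hrd3 peak nearest to the start of PTPMT1 and the Keap1 peak to that of kuk. The genes rngo, TER94 and sip3 had none. Of 5 ubiquitin and E1 genes 2 had a peak, Ubi-p63E (1.56) and Uba1 (0.863), and Ubi-p5E, RpS27A and RpL40 had none.

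Of 10 ubiquitin-conjugating (E2) genes 8 had a peak, among them eff (3.08) and ben (2.51), and Ubc10 and Ubc2 had none. Of 8 genes of shuttle factors and cofactors of the unfoldase p97, 4 had a peak, led by CG8209 (2.01, nearest to HP4), Plap (1.61) and Ufd4 (1.25), and Rad23, Ubqn, Ufd1 and Npl4 had none. The COP9 signalosome, a complex built from subunits related to those of the lid, had peaks at 2 of 9 genes, alien (1.79, nearest to CG18661) and CSN3 (1.10), against 7 of 9 for the lid with Sem1. CSN1a, CSN1b, CSN4, CSN5, CSN6, CSN7 and CSN8 had none. The lists hold 5 to 12 genes and were not tested.

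**Figure D5:**
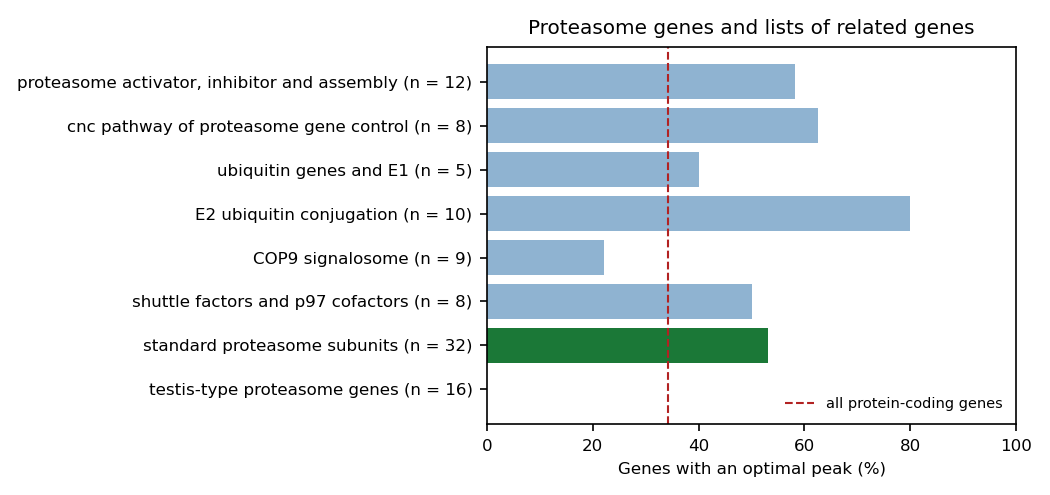
Bars give the percentage of genes with an optimal peak in 6 lists of genes that work with the proteasome, in the standard subunits and in the testis-type genes, with the number of genes in brackets. The dashed line is the 34.2% of all protein-coding genes, and values run from 0% for the testis-type genes to 80.0% for the E2 genes.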

How the data were processed

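Per the deposited notes, each replicate and the pooled reads have a relaxed peak list that served as input to the irreproducible discovery rate, from which the authors took the optimal list. The sources used here name no aligner or peak caller. The signal of each peak and the −log10 q-value are the authors' own, as deposited, in lists of the build dm6. The scale of the signal is not given, so it was divided by the median of its list, or in a replicate by the median of the peaks matched to the optimal list, and used only within a list. The dm3 copies of the lists, the signal tracks and the control were not used here.

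Summits were joined to the Ensembl BDGP6 annotation (release 115), on the same assembly as dm6, and to its RefSeq sequence. A promoter peak lay within 500 bp of any annotated start, transposable elements left out. An optimal peak was found in a replicate when 1 of the replicate's 5809 strongest peaks had its summit within 200 bp; values by replicate came from the strongest relaxed peak within 200 bp. Genes were named by a fixed rule: all standard genes without and all testis-type genes with an optimal peak, the 10 strongest standard genes, in each list the 3 strongest and those without a peak, and the gene whose start is nearest to a named peak; others named, including the remaining members, were chosen after their values were seen. One gene that this rule names is not reported here. The older symbols CSN2 and Ufd1-like were matched to alien and Ufd1 through RefSeq's synonyms. Members, lists and motifs were chosen with earlier results of these data known, and the grouping by place in the proteasome was written after peak values were seen. Whether replicates came from separate collections of embryos is not stated beyond the label biological replicate. Assignment and motif search were tested on simulated data. Python 3.11.15, numpy 2.4.6, pandas 2.3.3 and matplotlib 3.10.9 were used.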

Additional observations from a re-analysis of the deposited data

How the results depend on the processing

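The difference between standard and testis-type genes kept its sign under each alternative tried, but with all relaxed peaks its size depended on the replicate. Among the 5809 strongest peaks, leaving out 1 replicate at a time gave mean shares of 46.9% to 48.4% for standard genes, 0% for testis-type genes and a difference of 46.9 to 48.4 percentage points. With all relaxed peaks the mean shares over replicates were 74.0% and 27.1%, with peaks of a −log10 q-value of at least 2 they were 62.5% and 0%, and with the 2904 strongest peaks 27.1% and 0%. The mean differences were 46.9, 62.5 and 27.1 points. All protein-coding genes stood at 69.0%, 63.9% and 64.9% in replicates 1, 2 and 3 with all relaxed peaks. They stood at 49.4%, 34.1% and 41.4% with the q-value limit, and at 22.1%, 21.6% and 22.0% with the 2904 strongest peaks. The standard share thus lay closer to that of all genes with all relaxed peaks and with the 2904 strongest than with the q-value limit. With all relaxed peaks the difference was 6.25 points in replicate 2, where 50% of testis-type genes had a peak, against 71.9 and 62.5 points in replicates 1 and 3. Without replicate 2 the relaxed shares were 82.8% and 15.6%, a difference of 67.2 points. Without replicate 1 they were 65.6% and 31.2% (34.4 points), and without replicate 3 they were 73.4% and 34.4% (39.1 points). These combinations were chosen after seeing the data. With the 2904 strongest optimal peaks 9 members had a peak, all standard (22.0% of all protein-coding genes). With peaks found in all 3 replicates 11 did (27.1%), with summits in the gene body alone 4 (13.8%), and again all were standard. In the gene body alone the standard share was 12.5%, against 13.8% of all protein-coding genes and 6.25% of those in the members' length range. With the nearest coding start alone, 10 standard and 2 testis-type genes had a peak. The pooled relaxed list gave 1 testis-type gene. When replicate peaks had to overlap by 50% of both intervals, 9 of the 23 member peaks in place of 15 were found in all 3 replicates. No paired analysis was possible because there is only 1 group. Read depth is unknown, so an absent peak may be a site below detection.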
